A study of Homo sapiens with 7 samples.

Results

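The BCL2 family is a set of proteins that decides at the mitochondrion whether a cell lives or dies. The mRNA of 10 of its genes was followed here in the human acute myeloid leukemia (AML) cell line MOLM13 after transduction with guide RNAs against ZFP36L2. The members are the survival genes BCL2, BCL2L1, MCL1 and BCL2A1, the effectors BAX and BAK1, and the BH3-only genes BCL2L11, BMF, BID and BAD. They were chosen by name, as the rows of the deposited expression table whose symbol is 1 of these 10, out of 11408 genes with values. All 10 were in the table, and all 10 passed the filter of at least 1 CPM (reads scaled to a common library size) in at least 2 libraries, as did every other gene with values.

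The study asked how gene expression in this leukemia differs when ZFP36L2 is knocked out. There were 7 libraries of poly(A) RNA, each harvested 6 days after transduction: 3 controls with sgRosa, which the labels describe as a non-targeting guide, and 2 libraries for each of 2 guides against ZFP36L2. The guides are called guide 3 and guide 5 after the deposited columns; the labels number them differently. Whether the cells were a pool or a clone, whether replicates were separate cultures and how the knockout was checked are not given in the sources used here, so p-values measure the spread between these libraries, which may be technical.

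Survival members of the family hold the effectors BAX and BAK1 in check. BH3-only members sense damage, withdrawal of growth factors or death receptor signals, and either occupy the survival proteins or act on the effectors, which then permeabilize the outer mitochondrial membrane and release cytochrome c. Acute myeloid leukemia cells commonly lean on BCL2 and MCL1, and BCL2 is the target of the drug venetoclax. ZFP36L2 itself belongs to the ZFP36 family of zinc finger proteins, which recognise AU-rich stretches of the 3′ UTR and speed up the decay of the mRNA.

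Because of that binding preference, the annotated 3′ UTRs of the members (GENCODE 29, GRCh38, main transcript of each gene) were searched on the mRNA strand for TATTTAT, the DNA spelling of the core AU-rich element. A match was found in 3 members, all of them survival genes, and in none of the other 7. The 5 matches are printed because they are all the matches in the main 3′ UTRs of these 10 members, with the motif in capitals, 5′ to 3′ on the mRNA strand, and each lies within the 3′ UTR part of an exon.
BCL2, chr18:63128355-63128379, minus strand: aaaaagattTATTTATttaagacag
MCL1, chr1:150575809-150575833, minus strand: ctctacagaTATTTATatcaattcc
MCL1, chr1:150575194-150575218, minus strand: ttacctatgTATTTATcgttcttga
MCL1, chr1:150575166-150575190, minus strand: taagccgctTATTTATatcatgtat
BCL2L1, chr20:31664684-31664708, minus strand: gcgtgtctgTATTTATgtgtgagga

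Such matches are common: 32.5% of the 10563 tested genes with a 3′ UTR hold at least 1. The BCL2 3′ UTR is long, at 5279 bases, and 71.7% of 3′ UTRs within 20% of its length hold the motif. The corresponding shares are 53.4% for MCL1, with 2819 bases, and 33.1% for BCL2L1, with 1497 bases. BMF, with 3897 bases, has no match although 62.7% of 3′ UTRs of like length do. BCL2A1 has a 3′ UTR of 178 bases and no match, as do most of that length, where 5.94% have 1. For the remaining members without a match the shares at like length were also low. They were 5.10% for BAX (162 bases), 11.5% for BAD (379 bases) and 22.3% for BCL2L11 (817 bases). For BAK1 (1251 bases) the share was 28.3% and for BID (1442 bases) 32.4%. The split between survival genes and the others is to be read beside these shares. A match is a description of these letters and does not show binding.

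Reads in the listed genes numbered from 16907955 to 25164359 in the controls and from 28088053 to 38807816 in the guide libraries. ZFP36L2 mRNA was at 337, 334 and 311 CPM in the controls, 1132 and 1353 CPM in the libraries labelled with guide 3, and 734 and 690 CPM in those labelled with guide 5. It was thus higher, not lower, in the guide libraries, and an mRNA level does not show whether an edit disrupted the protein. All 12 myeloid markers examined were in the table. Their summed level was 5460 to 8206 CPM in the controls and 11648 to 21150 CPM in the guide libraries. LYZ, which encodes lysozyme, made up 66.4% to 87.2% of that sum. Without it the other 11 summed to 1498 to 1837 CPM in the controls and 2132 to 2723 CPM in the guide libraries. Of the markers of other cells, 1 of 6 for T cells (CD3D) and 1 of 5 for epithelium (KRT18) were in the table, and 0 of 5 each for B cells, erythroid cells and fibroblasts. In bulk RNA, fewer cells of a type and less RNA per cell cannot be told apart.

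The guide libraries differed from the controls in 6 of the 10 members. BCL2A1, BMF, BAX, BAK1 and BAD were higher and BCL2 was lower (limma on log2(CPM + 0.5), adjusted p under 0.05 for the mean of both guides against control). Across all genes 20.9% were called higher and 20.6% lower in that comparison. The median log2 change of the 10 members was 0.55, against −0.05 over all genes. Guide and control libraries did not overlap for 6 members that were higher and 1 that was lower, where 19.8% and 23.7% of all genes did the same. The plot of CPM by library shows these values.

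**Figure D1:**
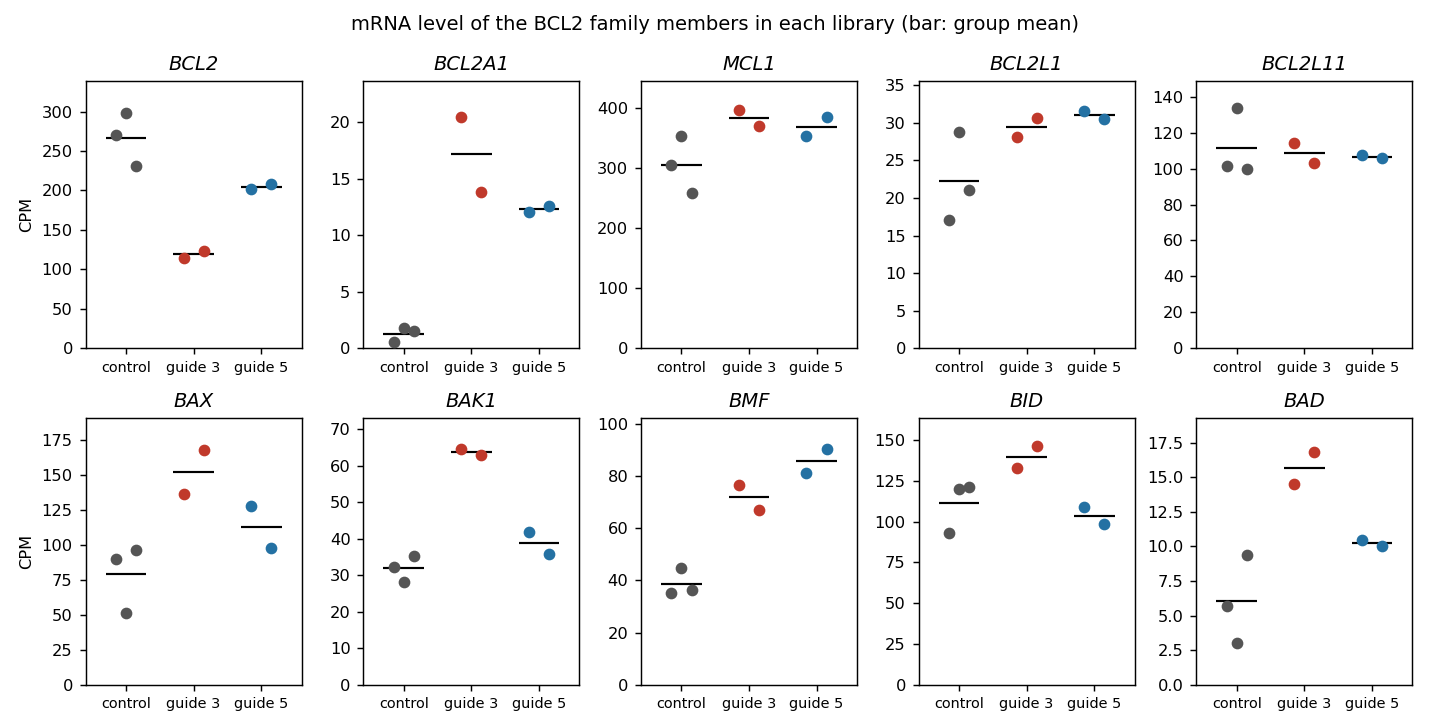
CPM (y axis, from 0, a separate scale for each gene) of the 10 members in the 3 control, 2 guide 3 and 2 guide 5 libraries; points are libraries and bars are group means. BCL2A1 rises from at most 1.82 CPM in the controls to at least 12.1 CPM in every guide library, BCL2 falls with the guide 3 libraries lowest, and BCL2L11 stays within the range of the controls.

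Among the survival genes, BCL2 encodes the founding member of the family. Its mRNA stood at 270, 299 and 231 CPM in the controls, 115 and 123 CPM with guide 3, and 201 and 208 CPM with guide 5. All 4 guide libraries were below all 3 controls, and the guide 3 libraries were below those of guide 5. The log2 change was −0.76 ± 0.16 (SE) for both guides (limma, adjusted p = 0.00294), a level 1.70-fold lower. With guide 3 it was −1.15 ± 0.19 (adjusted p = 0.000718). With guide 5 it was −0.37 ± 0.19 and not called (adjusted p = 0.181). The 2 guides differed by 0.78 ± 0.21, with an unadjusted p of 0.00269 and an adjusted p of 0.192, so the difference between guides did not pass the threshold.

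BCL2A1 encodes BFL1, a short-lived survival protein of blood cells whose gene is a known NF-κB target. Its mRNA was at 0.540, 1.82 and 1.51 CPM in the controls, which rests on 10, 39 and 37 reads. It was at 20.5 and 13.9 CPM with guide 3 (673 and 531 reads) and at 12.1 and 12.6 CPM with guide 5 (452 and 367 reads). The lowest guide library was therefore well above the highest control. The log2 change for both guides was 3.14 ± 0.28 (limma, adjusted p = 3.56e-06), or 8.81-fold on the CPM + 0.5 scale. It was 3.36 ± 0.34 with guide 3 (adjusted p = 1.17e-05) and 2.92 ± 0.34 with guide 5 (adjusted p = 5.62e-05). The guides did not differ detectably (difference −0.44, 95% interval −1.24 to 0.36). Only 5.65% of the 955 genes with a transcript GC content within 1 percentage point of BCL2A1 were called higher.

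The tested genes with the profile most like that of BCL2A1 over the 7 libraries, by Pearson's r of log2(CPM + 0.5), were RAB3D (r = 0.998), CRISPLD2 (0.997) and MIR22HG (0.997). They share its libraries and groups, so these values describe the profile alone. Their log2 changes were 0.72, 3.24 and 2.92.

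MCL1, a survival protein with rapid turnover, had the highest level of the 4 survival genes. It was at 305, 352 and 258 CPM in the controls, 397 and 370 CPM with guide 3, and 353 and 385 CPM with guide 5. The lowest guide library and the highest control were nearly equal. The log2 change of 0.31 ± 0.17 was not called (limma, adjusted p = 0.145), with a 95% interval from −0.05 to 0.67. It was called under 5 of 22 alternatives, among them without control replicate 2, at 0.42 (adjusted p = 0.0156), and after the GC and length correction described below.

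BCL2L1 encodes the survival protein BCL-xL and, by splicing, the death-promoting BCL-xS, which gene-level values do not separate. Controls ranged from 17.0 to 28.8 CPM and guide libraries from 28.1 to 31.6 CPM, so the groups overlapped through control replicate 2, which held the highest control value. The log2 change of 0.46 ± 0.20 was not called (limma, adjusted p = 0.0833). It was called under 4 of 21 alternatives, among them without control replicate 2, at 0.66 (adjusted p = 0.0045). The gene shares 1424 bases of exon with ABALON on the opposite strand, and since no source used here says whether counting used strand, reads of the 2 genes may not be separated.

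The effectors BAX and BAK1 form the pores in the outer mitochondrial membrane. BAX mRNA was at 90.0, 51.2 and 96.2 CPM in the controls, 136 and 168 CPM with guide 3, and 128 and 97.9 CPM with guide 5. Control replicate 2 was far below the other controls, and the lowest guide 5 library lay just above the highest control. The log2 change was 0.77 ± 0.23 for both guides (limma, adjusted p = 0.0172) and 0.98 ± 0.27 with guide 3 (adjusted p = 0.0129), while with guide 5 it was 0.55 ± 0.27 and not called (adjusted p = 0.160). Without control replicate 2 the change for both guides was 0.48 (adjusted p = 0.0201). The call was lost without guide 3 replicate 2 (adjusted p = 0.0638) and without guide 5 replicate 1 (adjusted p = 0.0729). The guide 3 call was also lost without guide 3 replicate 2, at 0.83 (adjusted p = 0.135).

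BAK1 was at 32.3, 28.3 and 35.3 CPM in the controls, 64.7 and 62.9 CPM with guide 3, and 41.8 and 35.8 CPM with guide 5. The guide 3 libraries stood apart, whereas the lower guide 5 library nearly met the highest control. The log2 change was 0.63 ± 0.17 for both guides (limma, adjusted p = 0.0111) and 0.99 ± 0.20 with guide 3 (adjusted p = 0.00281). With guide 5 it was 0.28 ± 0.20 and not called (adjusted p = 0.344). The difference between guides, −0.71 ± 0.22, had an unadjusted p of 0.00723 and an adjusted p of 0.296. The call for both guides was lost without guide 3 replicate 1, guide 3 replicate 2 or guide 5 replicate 1 (adjusted p = 0.0506, 0.0514 and 0.0703). BAK1 shares 91 of its 2212 exon bases with GGNBP1 on the opposite strand. It also has processed pseudogenes, whose reads may be split from it by the alignment.

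Among the BH3-only genes, BMF encodes a protein that binds survival members and is held at the cytoskeleton in healthy cells. Its mRNA was at 35.0, 44.7 and 36.5 CPM in the controls, 76.4 and 67.0 CPM with guide 3, and 81.0 and 90.2 CPM with guide 5. Every guide library was above every control. The log2 change was 1.01 ± 0.17 for both guides (limma, adjusted p = 0.000669), or 2.02-fold. It was called with either guide, at 0.89 ± 0.20 for guide 3 (adjusted p = 0.00516) and 1.14 ± 0.20 for guide 5 (adjusted p = 0.00178). Without guide 3 replicate 1, the guide 3 change was 0.79 and no longer called (adjusted p = 0.0773). BMF shares 461 of its 5447 exon bases with BMF-AS1 on the opposite strand.

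BAD, a BH3-only protein regulated by phosphorylation downstream of growth factor signals, had the lowest level per exon length after BCL2A1 in the controls. In CPM it was at 5.67, 2.99 and 9.41 CPM there, 14.5 and 16.9 CPM with guide 3, and 10.5 and 10.1 CPM with guide 5. The controls differed among themselves by more than 3-fold, and the guide 5 libraries lay just above the highest control. The log2 change was 1.14 ± 0.30 for both guides (limma, adjusted p = 0.00915) and 1.43 ± 0.35 with guide 3 (adjusted p = 0.00763). With guide 5 it was 0.85 ± 0.35 and not called (adjusted p = 0.104). Without control replicate 2, the lowest library, the change for both guides was 0.75 (adjusted p = 0.0119). Without guide 3 replicate 2, the guide 3 change was 1.33 and no longer called (adjusted p = 0.0690). BAD shares 404 of its 1708 exon bases with GPR137 on the opposite strand.

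BCL2L11 and BID were not called in either direction. BCL2L11 encodes BIM, a BH3-only protein that binds all survival members, and ranged from 99.6 to 134 CPM in the controls and from 103 to 114 CPM in the guide libraries. Its log2 change was −0.04 ± 0.17 (limma, adjusted p = 0.874, 95% interval −0.40 to 0.33). BCL2L11 shares 727 of its 6658 exon bases with MIR4435-2HG on the opposite strand. BID, which caspase-8 cleaves to link death receptors to mitochondria, ranged from 92.9 to 121 CPM in the controls, was at 133 and 146 CPM with guide 3, and at 109 and 98.5 CPM with guide 5. Its log2 change was 0.12 ± 0.17 (limma, adjusted p = 0.573, 95% interval −0.24 to 0.48).

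By guide, 5 members were higher and 1 lower with guide 3, where 21.2% of all genes were called higher and 18.9% lower. With guide 5, BCL2A1 and BMF were higher and 0 members were lower by limma (12.2% and 7.68% of all genes), and 3 members had an unadjusted p under 0.05, as did 35.9% of all genes. These comparisons share the 3 controls. In the direct comparison of guide 5 with guide 3, 0 members were called by limma on log2(CPM + 0.5) or by limma voom on recovered reads, where limma on log2(CPM + 0.5) called 0.351% of all genes higher and 0.0614% lower. An unadjusted p under 0.05 was found for 2 members and 10.2% of all genes. In the authors' deposited table, 6 members had a false discovery rate under 0.05 for guide 3 and 2 for guide 5, against 39.9% and 19.7% of all genes. That table gives BCL2A1 a log2 fold of 3.71 for guide 3 and 3.23 for guide 5, and BCL2 one of −1.16 and −0.38.

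**Figure D2:**
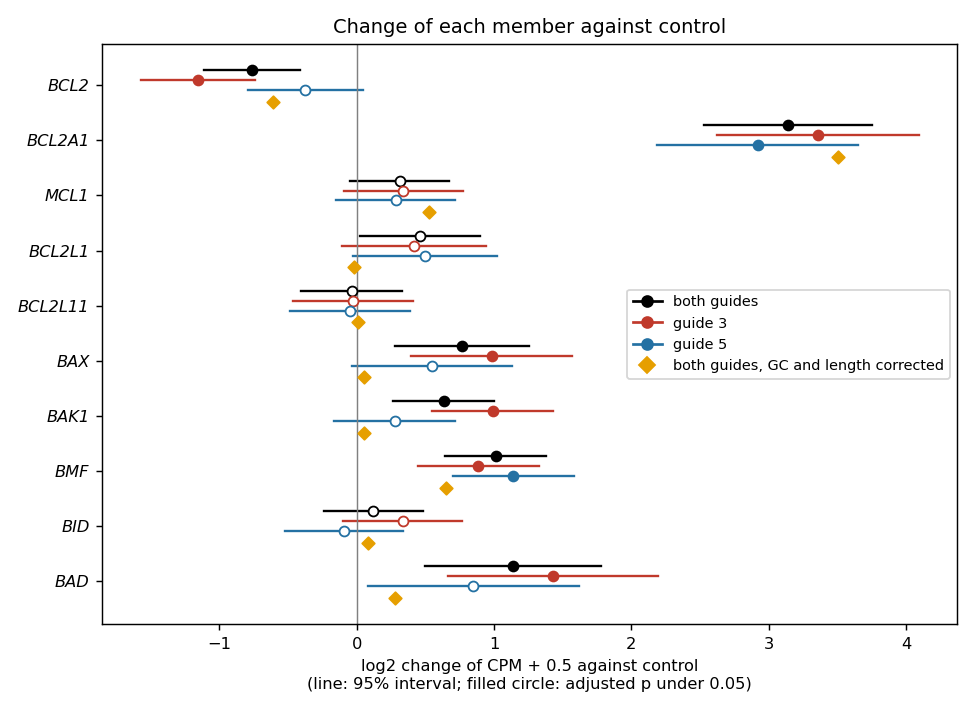
Log2 change of CPM + 0.5 against control (x axis) for each member (y axis), for both guides, guide 3 and guide 5; lines are 95% intervals and filled circles passed an adjusted p of 0.05. Diamonds give both guides after correction for GC content and transcript length: BAX, BAK1 and BCL2L1 move to near 0, while BCL2A1, BMF and BCL2 keep their side.

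The libraries also differed in how level moved with the GC content of the transcript. Across genes, Pearson's r of transcript GC content with a gene's deviation from its own mean was −0.52, −0.60 and −0.08 in control replicates 1 to 3, 0.44 and 0.70 with guide 3, and 0.47 and −0.02 with guide 5. Genes are not independent replicates, so these values describe each library. The members span this range, from 39.9% GC in BCL2A1 to 66.3% in BAD. Among genes within 1 point of GC of each member, 45.2% were called higher for BAX (60.7% GC), 43.2% for BAK1 (58.8% GC), 54.0% for BAD and 28.0% for BMF (54.8% GC). For BCL2, at 45.6% GC, 27.8% of such genes were called lower.

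With GC content and transcript length regressed out of each library, 3 members were higher and 1 lower (17.6% and 29.4% of all genes). BCL2 remained lower at −0.61 (limma, adjusted p = 0.00176). BCL2A1 remained higher at 3.50 (adjusted p = 3.77e-05) and BMF at 0.65 (adjusted p = 0.00146), and MCL1 was now called, at 0.53 (adjusted p = 0.00123). BAX was at 0.06 (adjusted p = 0.796), BAK1 at 0.05 (0.724) and BAD at 0.28 (0.261). For BAK1 this is a mean of guides on opposite sides of 0. It was at 0.28 with guide 3 (limma, adjusted p = 0.115) and −0.18 with guide 5 (adjusted p = 0.315). The members' median became 0.07, against −0.13 over all genes. By guide, the corrected values gave 3 members higher and 1 lower with guide 3 (16.3% and 25.2% of all genes) and 3 higher and 0 lower by limma with guide 5 (14.0% and 21.2% of all genes), namely BCL2A1, BMF and MCL1. Between the guides 0 members were called by limma (1.19% of all genes higher and 0.473% lower), and BCL2 came nearest, with a difference of 0.64 (adjusted p = 0.0583). GC content and guide move together in these libraries, and a correction removes any difference that follows GC content, so for BAX, BAK1 and BAD the guide and the GC trend cannot be told apart.

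**Figure D3:**
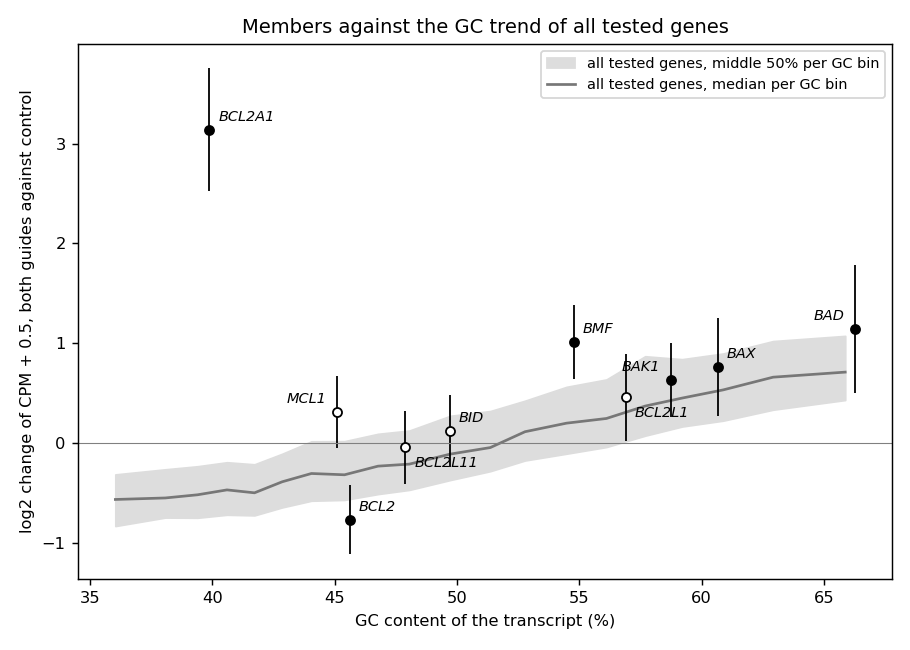
Log2 change of CPM + 0.5 for both guides against control (y axis) by GC content of the main transcript in percent (x axis); the grey line and band are the median and middle 50% of all tested genes per GC bin, and points with 95% intervals are the members, filled where called. BCL2A1, BMF and MCL1 lie above the band and BCL2 below it, BAD lies just above the band's upper edge in the bin of highest GC content, and the other 5 lie inside it.

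To compare levels between genes, CPM was divided by the merged exon length. In the controls MCL1 led with 69.8 ± 10.8 CPM per kilobase (SD, n = 3), above BAX with 30.6 ± 9.43 without overlap of the libraries. BID (25.0 ± 3.58), BCL2 (22.6 ± 2.90), BCL2L11 (16.7 ± 2.88) and BAK1 (14.5 ± 1.60) followed, each overlapping its neighbour in the order. BMF (7.11 ± 0.965), BCL2L1 (6.74 ± 1.81) and BAD (3.53 ± 1.89) were lower, again overlapping in turn, and BCL2A1 was last with 1.19 ± 0.615. Per kilobase of the main transcript instead, BAX (99.8) and BCL2L11 (73.2) moved up beside MCL1 (77.6), since their merged exons are much longer than their main transcripts, so the order rests on the length used.

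The make-up of the survival mRNA changed with the guides. BCL2 made up 23.3%, 21.8% and 22.7% of the summed level of the 4 survival genes per exon kilobase in the controls, 7.60% and 8.95% with guide 3, and 14.4% and 14.0% with guide 5. The 3 groups did not overlap. BCL2A1 made up 0.504% to 1.61% in the controls, 14.7% and 10.9% with guide 3, and 9.38% and 9.12% with guide 5. Per exon kilobase, MCL1 made up 68.31% to 70.95% in the controls, 71.04% and 72.28% with guide 3, and 68.12% and 69.63% with guide 5. On transcript length the BCL2 share was 28.1% to 29.9% in the controls, 10.4% and 12.2% with guide 3, and 19.2% and 18.6% with guide 5. The MCL1 share on that length was 61.8% to 64.2% in the controls, 68.7% and 69.3% with guide 3, and 63.8% and 65.4% with guide 5. On either length the guide 3 libraries were above every control in MCL1 share, but only narrowly per exon kilobase. The size of that difference thus rests on the length used. The log2 ratio of BCL2 to MCL1 averaged −1.62 in the controls, −3.12 with guide 3 and −2.28 with guide 5, and after the GC and length correction −1.59, −3.13 and −2.31. These shares are descriptions of each library and were given no test.

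The balance of survival over effector mRNA, the log2 ratio of the 4 survival genes to BAX plus BAK1 per exon kilobase, did not separate the groups in the values as deposited. It was 0.99, 1.84 and 0.70 in the controls, 0.64 and 0.33 with guide 3, and 0.79 and 1.23 with guide 5. Guide 3 libraries were below all controls and guide 5 libraries lay among them. The mean over the guide libraries was 0.43 below that of the controls, less than the SD of 0.59 among controls. After the GC and length correction the ratio was 0.51, 0.96 and 0.66 in the controls, 1.12 and 1.06 with guide 3, and 1.09 and 1.17 with guide 5. Every guide library was then above every control. The guide mean was 0.40 above that of the controls, more than the SD of 0.23 among controls, so the direction of this balance rests on the correction.

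**Figure D4:**
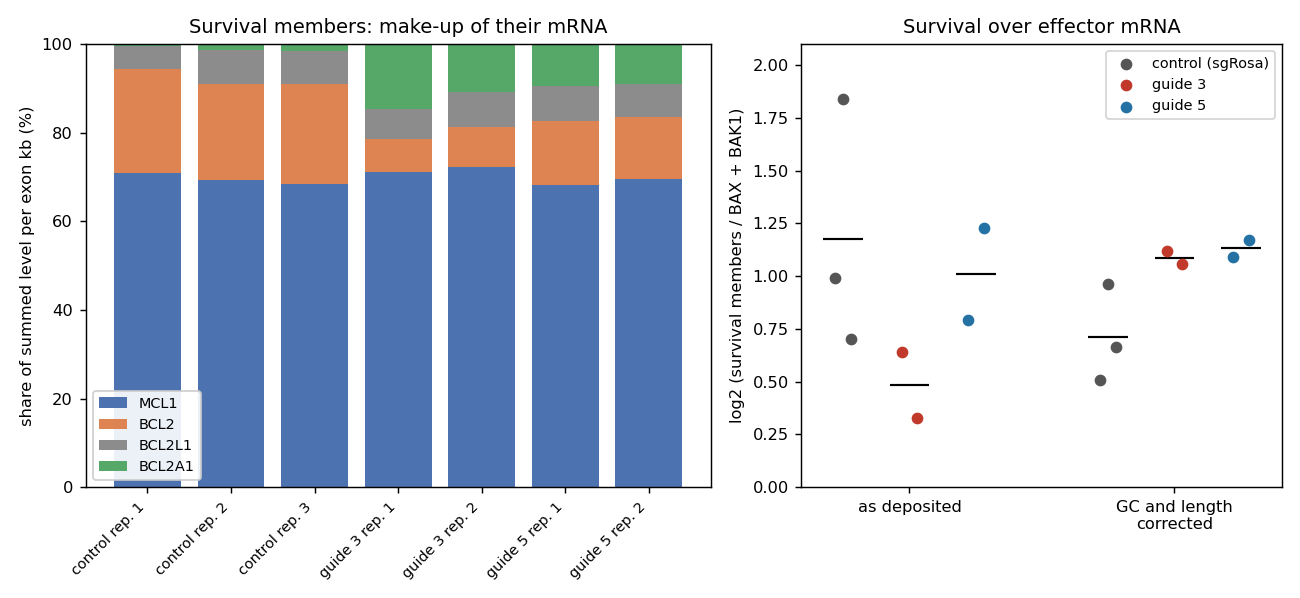
Left, share in percent (y axis) of each survival gene in their summed level per exon kilobase in the 7 libraries; BCL2 takes 21.8% to 23.3% in the controls and 7.60% to 14.4% with the guides. Right, log2 ratio of the survival genes to BAX plus BAK1 (y axis) by group, as deposited and after GC and length correction; points are libraries and bars are group means, and the order of control and guides turns with the correction.

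Other genes of the pathway were followed as lists, compared for both guides against control. Across all genes 20.9% were called higher and 20.6% lower, and 17.6% and 29.4% after the GC and length correction. The counts of every list are to be read beside these shares, and no list was tested as a set. Of 16 other genes listed with the BCL2 family, 11 were tested. Of these, 5 were higher and 1 lower, with a median log2 change of 0.43 (4 and 1 after the GC and length correction, median 0.21). BBC3, which encodes the BH3-only protein PUMA, rose from 7.76 ± 4.46 CPM (SD, n = 3) to 14.7 ± 4.19 CPM (n = 4), with a log2 change of 1.04 (limma, adjusted p = 0.0427), although its libraries overlapped and it was at 0.13 after the correction (adjusted p = 0.733). The mitophagy receptors BNIP3 and BNIP3L were higher by 0.77 and 0.72 (limma, adjusted p = 0.00560 and 0.0183), and by 0.99 and 1.16 after the correction. The 1 lower gene was BCLAF1, which was listed with the family as a nuclear BCL2-associated factor. Its log2 change was −0.92 (limma, adjusted p = 0.00388), and −0.46 after the correction (limma, adjusted p = 0.00162).

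Downstream of cytochrome c release, 14 of 15 apoptosome and caspase genes were tested, of which 1 was higher and 3 were lower (median −0.32). After the correction 1 was higher and 6 were lower (median −0.35). The shares over all genes were 20.9% and 20.6%, and 17.6% and 29.4% after the correction. APAF1, the scaffold of the apoptosome, was at 211 ± 33.9 CPM in the controls (SD, n = 3) and 119 ± 12.1 CPM in the guide libraries (n = 4), a log2 change of −0.82 (limma, adjusted p = 0.00329). CASP6, an effector caspase, changed by −0.99 (adjusted p = 0.00226), and the initiator CASP9 by 0.54 (adjusted p = 0.0305), both by limma. After the correction APAF1 and CASP6 were still called lower, at −0.60 and −0.80, while CASP9 (0.16, adjusted p = 0.262) was not.

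All 7 genes listed under inhibitors of apoptosis were tested, with 2 higher and 0 lower by limma (median −0.12). After the correction 3 were higher and 0 lower (median 0.18). The 2 higher genes were XAF1 and NAIP. XAF1, an antagonist of XIAP and so not itself an inhibitor, had a log2 change of 1.14 (limma, adjusted p = 0.00612). NAIP, a sensor of bacterial proteins in the inflammasome, had one of 0.88 (limma, adjusted p = 0.00403). XAF1 libraries of guides and controls overlapped, and its log2 change was 0.58 with guide 3 and 1.70 with guide 5. Of 14 death receptor genes 12 were tested, with 4 higher and 1 lower (median 0.31; 4 and 1 after the correction, median 0.07). TNFRSF1B, the TNF receptor 2, rose by 1.22 on the log2 scale and TNFRSF10B, a receptor for TRAIL, by 0.67 (limma, adjusted p = 0.000150 and 0.00438). Both were still called after the correction, at 0.61 and 0.62 (limma, adjusted p = 0.000409 and 0.00138). TRADD, an adaptor of TNF receptor 1, was at 0.90 (limma, adjusted p = 0.0467), with overlapping libraries, and at 0.09 after the correction (adjusted p = 0.811). FAS changed by −0.80 (limma, adjusted p = 0.0231), and by −0.38 after the correction (adjusted p = 0.129).

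Of 17 mitochondrial partners, all tested, 2 were higher and 4 lower (20.9% and 20.6% of all genes), with a median of −0.12. After the correction 1 was higher and 4 were lower (17.6% and 29.4% of all genes), with a median of −0.14. The channel VDAC3 changed by −0.74 (limma, adjusted p = 0.00603) and the fusion protein MFN1 by −0.54 (adjusted p = 0.0337). The adenine nucleotide carrier SLC25A6 changed by 1.06 (adjusted p = 0.00139) and the chaperone BAG6 by 0.73 (adjusted p = 0.00605), all by limma. After the correction VDAC3 was still called, at −0.48, and the other three were not.

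Of 17 genes that act on the turnover or binding of MCL1, BIM and BAD proteins, 16 were tested. There 1 was higher and 3 were lower (20.9% and 20.6% of all genes), with a median of −0.33. After the correction 2 were higher and 4 lower (17.6% and 29.4% of all genes), with a median of −0.17. The ubiquitin ligase subunit FBXW7 and the ligase MARCH5, which target MCL1, changed by −0.65 and −0.52 (limma, adjusted p = 0.0254 and 0.0268). The deubiquitinase USP13 changed by −0.74 (adjusted p = 0.00508) and the kinase AKT1, which phosphorylates BAD, by 0.70 (adjusted p = 0.00607). After the correction USP13 was still called, at −0.54, and FBXW7, MARCH5 and AKT1 were not.

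All 23 transcription regulators of the family were tested, with 7 higher and 4 lower (median 0.25). After the correction 5 were higher and 10 lower, with a median of −0.22, so the sign of this median rests on the correction. RELB, an NF-κB subunit, was at 10.1 ± 3.23 CPM in the controls (SD, n = 3) and 28.8 ± 2.64 CPM in the guide libraries (n = 4), with a log2 change of 1.51 (limma, adjusted p = 0.000199). The repressor BCL6 changed by 1.40 (adjusted p = 0.000180), the stress factor DDIT3, also called CHOP, by 1.22 (adjusted p = 0.00203) and SPI1, the myeloid factor PU.1, by 1.16 (adjusted p = 0.000518). After the correction RELB (0.70), BCL6 (1.33) and DDIT3 (1.08) were still called and SPI1 (0.33, adjusted p = 0.0756) was not.

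**Figure D5:**
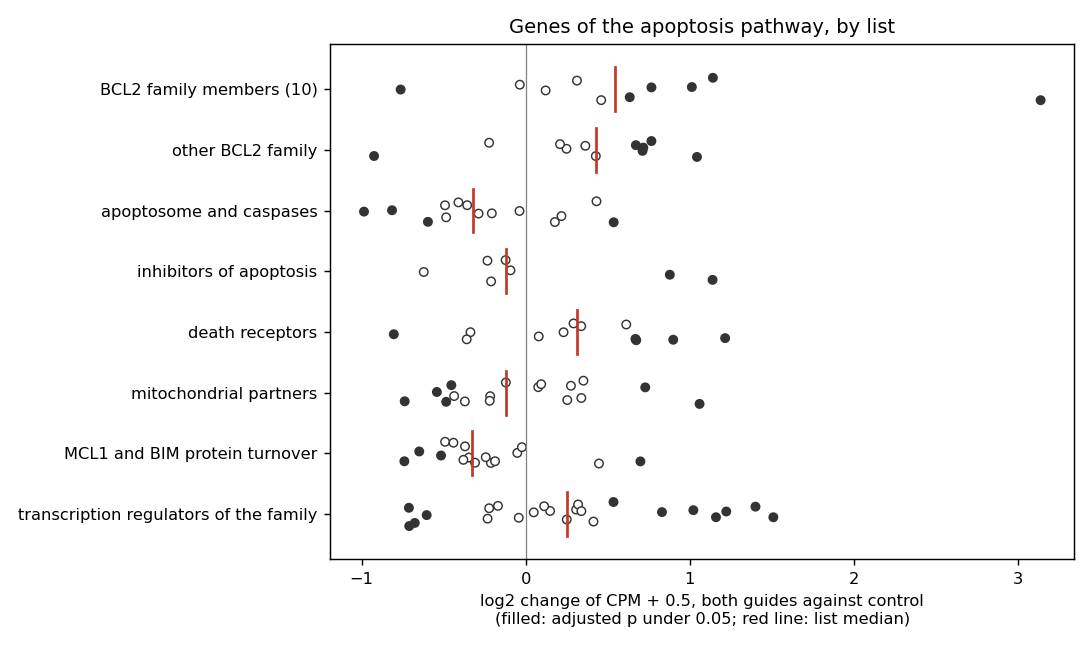
Log2 change of CPM + 0.5 for both guides against control (x axis) of each tested gene in the 8 lists (y axis; vertical scatter within a list carries no meaning); filled points passed an adjusted p of 0.05 and red lines are list medians. The medians are 0.55 for the 10 members, 0.43 for the other genes listed with the family and −0.32 for the apoptosome and caspases.

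Myeloid markers also differed between guide and control libraries, and any link of the markers to the members was not tested. Of the 12 markers, 8 were called higher and 2 lower, with a median log2 change of 1.12 (6 and 2 after the GC and length correction, median 0.61). Over all genes 20.9% were called higher and 20.6% lower, and 17.6% and 29.4% after the correction. The 2 markers with the largest change, named after their values were seen, were CD14 and ITGAM. CD14, a monocyte receptor, changed by 6.05 (limma, adjusted p = 1.07e-08) and ITGAM, which encodes CD11b, by 3.12 (adjusted p = 5.28e-08); after the correction they were at 5.49 and 2.66. The 2 markers that were lower were MPO, the granule enzyme myeloperoxidase, and FLT3, a receptor tyrosine kinase of blood progenitors. Both changed by −0.80 (limma, adjusted p = 0.00517 for MPO and 0.00327 for FLT3).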

How the data were processed

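The members, the gene lists and the tests were chosen with earlier results of these data known. Per the labels, poly(A) RNA was made into directional libraries and sequenced single-end. STAR 2.5.3, HTSeq, edgeR and limma with GRCh38.p7 and hg38 are named in the submitters' processing notes; roles and strand setting are not given in the sources used here. The authors deposited FPKM per library. Their deposited table of comparisons holds log2 fold changes, an F score, p-values and false discovery rates, and group means of CPM, reads scaled to an adjusted library size.

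Both tables list 11581 genes; 173 without FPKM were left out. Mean CPM over mean FPKM gave a gene length in whole bases (within 0.01 bases) for all 11408 genes. Of these lengths, 8064 equal gene end minus start in GENCODE 29, as for BCL2 with 196782 bases. The others differ, as for MCL1 with 5034 against a span of 5188 bases. So for most genes the deposited FPKM are per kilobase of whole gene. For every gene CPM was recomputed as FPKM times its recovered length. Values of single libraries then came out as whole reads within 0.01 reads (100% of values in each library), 1 read being 0.0261 to 0.0540 CPM. Reads carry no molecular identifiers, so depth covers counting error only.

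Differences were fitted by limma 3.58.1 (R 4.3.3) on log2(CPM + 0.5), taking control, guide 3 and guide 5 as groups, and with a variance prior that follows the mean level (degrees of freedom: 4 residual, 8.78 prior); folds on this scale understate changes of low genes. Tests were two-sided, with Benjamini-Hochberg adjustment over 11408 genes and a threshold of 0.05. The fit was also run on simulated reads. These carried no GC trend, so that run does not speak to the GC trend of the real libraries. For the GC and length correction, each library's deviations from gene means were regressed on splines (4 degrees of freedom each) of transcript GC content and log length. Named genes are the members, ZFP36L2, the up to 4 called genes with the largest change in each list, and the 3 genes most like BCL2A1; 1 gene under this rule is not reported here. Python 3.11.15, pandas 2.3.3 and numpy 2.4.6 served for tables; matplotlib 3.10.9 drew the figures. Alternatives were other pseudocounts, filters, scalings, the FPKM scale, a replicate block, library weights, voom, separate fits and each library left out; a crossed block and main transcript length for the balance were added after seeing the data.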

Additional observations from a re-analysis of the deposited data

How the results depend on the processing

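With both guides, BCL2 was lower and BCL2A1 and BMF higher, past the threshold, under all 22 alternatives run. Some of these alternatives share their estimates, as described below. Members called higher ranged from 3 to 7 with each library left out (from 3 to 7 with guide 3, from 2 to 3 with guide 5), where over all genes 1115 to 3178 were called higher with guide 3 and 614 to 2238 with guide 5, and members called lower in the direct comparison of guides from 0 to 1, as did those called higher (over all genes, 1 to 204 lower and 8 to 233 higher). Without control replicate 2 there were 7 higher, without guide 3 replicate 2 or guide 5 replicate 1 there were 3, and the cause was not tested. After the GC and length correction 3 members were higher with both guides and 3 with guide 3 (2009 and 1858 of all genes). Library weights gave 8 higher with guide 3 and 4 with guide 5 (3643 and 2577 of all genes, against 2414 and 1393 without them). Between guides they gave 1 member higher and 3 lower, as did a fit of those 2 groups alone, but calls over all genes also went from 40 higher and 7 lower to 908 and 1366 with weights and 709 and 1141 with the groups alone. Quantile normalization and a common sum each gave 1 member higher between guides, which was BCL2 (113 and 75 of all genes). The FPKM scale, which tested 6783 genes, called 1526 higher and 1339 lower with both guides; with libraries left out, 1608 to 3076 were called higher and 1110 to 2951 lower.

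The correlation of deviations between same-numbered libraries was 0.056, −0.13, −0.38, 0.37 and −0.49, with no shared sign. With 2 libraries per guide the deviations of a guide mirror each other, and they also carry each library's GC trend. Whether the replicate numbers pair the libraries therefore cannot be told from these values. With the replicate block, 5 members were higher and 1 lower with both guides, and 4 were higher with guide 5; over all genes 2536 were higher and 2810 lower with both guides, and 1696 higher with guide 5. With the guide 5 numbers crossed, the counts were 5 and 1 with both guides and 3 higher with guide 5 (over all genes 2440, 2522 and 1457). Number 3 occurs only among the controls, so either block takes control replicate 3 out of the comparisons with control. The log2 changes were then those without that library, as for BAD at 1.51 and BCL2 at −0.86 with both guides. These alternatives are therefore not separate checks of the changes.

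Sign changes touched only values that were not called, beside the balance of survival and effector mRNA, which went to 0.40 after the GC and length correction. That correction also turned BCL2L1 (−0.021 with both guides, −0.15 with guide 3), BAK1 with guide 5 (−0.18), BAX between guides (0.017) and BCL2L11 (0.0086 with both guides, 0.025 with guide 5, 0.032 between guides). BCL2L11 with both guides, guide 3 and guide 5 was at 0.026, 0.021 and 0.031 under quantile normalization, 0.025, 0.026 and 0.024 under median of ratios, and 0.067, 0.080 and 0.054 with library weights; between guides it was at 0.0099 under quantile normalization and 0.048 with a common sum. MCL1 between guides was at 0.017 with a common sum, and BID with guide 5 at 0.015 with library weights. With a library left out, BCL2L11 ranged from −0.11 to 0.10 (both guides), −0.097 to 0.11 (guide 3), −0.12 to 0.087 (guide 5) and −0.0995 to 0.048 (between guides), BID from −0.0029 to 0.19 (both guides) and MCL1 from −0.12 to 0.0059 (between guides). Over all members, comparisons and alternatives, 794 values kept direction and side of the threshold, 36 newly passed it, 14 lost it and 28 changed sign. With no filter the result was the same, since every gene passed it. Depth limits BCL2A1 in the controls, at 10 to 39 reads.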
